A study of Mus musculus with 16 samples.

Results

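Conventional dendritic cells (cDCs) of naive mouse spleen were examined among CD45+ cells profiled by droplet single-cell RNA-seq. A cell was taken as a cDC when it held unique molecular identifiers (UMIs, 1 for each captured mRNA molecule) of at least 2 of the 7 genes Flt3, Zbtb46, Xcr1, Clec9a, Cd209a, Clec4a4, and Itgax, at least 1 UMI of the MHC class II gene H2-Aa, and none of Siglech, Cd79a, Cd3e, Cd3d, and Cd3g. This rule took 185 of 47060 cells, or 0.396% ± 0.0835 (SD, n = 5 libraries). The cells were then split into 73 with a UMI of Xcr1 or Clec9a (Xcr1/Clec9a+) and 112 with neither (Xcr1/Clec9a-). The choice of cells rests on measured values, so levels of the rule genes are given as descriptions without a test.

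The series asks how mouse kidney allografts are accepted or rejected, and naive spleen served as its untransplanted control. The spleen cells came from WT C57BL/6J mice without a transplant, and all CD45+ viable cells were sorted after grinding through a strainer and red cell lysis, without collagenase. The other CD45+ matrix used here came from kidney allografts 1 week after transplantation in the rejecting combination, B6 donor kidneys in DBA/2J recipients. Its GEO label gives the strain as C57BL/6J and the genotype as WT, and those kidneys were digested with collagenase. No group carried an engineered allele or a drug treatment in the labels. Naive spleen held 5 libraries and rejecting kidney 2 libraries, told apart by tags in the cell barcodes. The study's methods count every mouse as its own sample but give no number for naive spleen. Whether the 5 tags are 5 mice is not given in the sources used here, so p-values measure the spread between libraries, which may be technical. Exceptions for sparse genes and for the split in rejecting kidney are given below.

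cDCs arise from Flt3-dependent precursors and express the transcription factor Zbtb46, and they take up antigen and present it to T cells. The cDC1 lineage depends on Irf8 and Batf3, carries Xcr1 and the dead-cell receptor Clec9a, and cross-presents antigen on MHC class I to CD8+ T cells. The cDC2 lineage carries Sirpa, uses factors such as Irf4, Klf4, and Notch2, and mainly presents antigen on MHC class II to CD4+ T cells. In spleen, cDC2 cells include an Esam+ Clec4a4+ population that depends on Notch2 and a population with more monocyte-related genes.

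The 5 spleen libraries held 8052 to 11340 cells with a median of 2716 to 3372 UMIs per cell. The cDCs were deeper than the average cell, with a median of 6164 UMIs (5440 to 7379 over libraries) against 3068 over all cells. The summed cDC counts behind each level were 76268 to 177507 UMIs per library on each side of the split. Scrublet called 2.00% of spleen cells doublets and no cDC, but in library 1 it called 1 of 11340 cells, so it did not work there, nor in rejecting kidney, where it called 3 of 11948 cells. Between libraries, 238 barcodes occurred in more than 1 library, and 1 cDC barcode occurred in another library. None of the cDCs was among the 4681 cells of the deposited CD8+ T cell matrix of naive spleen.

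Promoters of cDC1-type genes were searched for 2 copies of GAAA with any 2 bases between them, the core of elements bound by interferon regulatory factors such as Irf8, and these stretches are shown because Irf8 was among the genes that differed most between the sides. The window was the 250 bases before the gene start, on both strands, from RefSeq promoters of GRCm38.p6, and no other motif was searched. The letters occurred in 3 of the 21 matched genes of the cDC1 list (14.3%), in 0 of the 19 matched genes of the cDC2 list, in 978 of all 32851 promoters (2.98%), and in 936 of all 27025 genes (3.46%). Ifi205 holds the match on the minus strand of chr1:174031870-174031899, 134 bases before its start. Tlr11 holds it on the plus strand of chr14:50357782-50357811, 122 bases before its start. Gpr141b holds it on the minus strand of chr13:19732952-19732973, 12 bases before its start. Capitals mark the match, and a match is a string of letters and not a shown binding site.
Ifi205: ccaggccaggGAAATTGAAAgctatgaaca
Tlr11: aggaagtcatGAAACTGAAAgaaaaagaga
Gpr141b: cgttgggagtGAAAACGAAAat

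All 5 libraries contributed to both sides of the split. Libraries 1 to 5 held 35, 30, 30, 42, and 48 cDCs, which is 0.309% to 0.501% of their cells. The Xcr1/Clec9a+ side had 16, 17, 8, 14, and 18 cells in these libraries, and the Xcr1/Clec9a- side had 19, 13, 22, 28, and 30 cells. The share of Xcr1/Clec9a+ cells ran from 26.7% in library 3 to 56.7% in library 2, with a mean of 40.0% ± 11.6 (SD, n = 5 libraries). Of the 73 positive cells, 45 had both Xcr1 and Clec9a, 20 had Clec9a alone, and 8 had Xcr1 alone. Of the 112 negative cells, 36 had Cd209a, 17 had Clec4a4, 5 had both, and 54 had neither of these. Cd209a was also seen in 7 positive cells and Clec4a4 in 0 of 73, which allows a share of up to 4.11% at a floor of 3 cells.

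**Figure D1:**
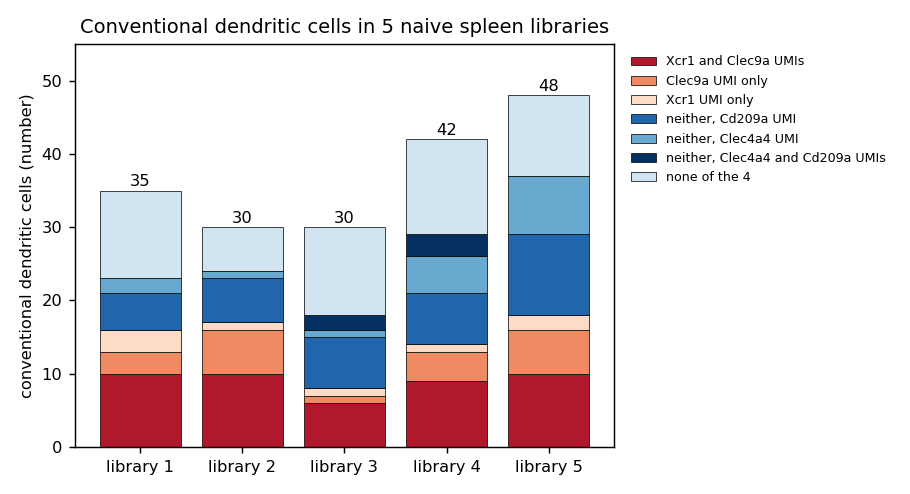
Conventional dendritic cells per naive spleen library, as counts of cells stacked by which of Xcr1, Clec9a, Cd209a, and Clec4a4 had a UMI. Every library holds Xcr1/Clec9a+ and Xcr1/Clec9a- cells, from 8 positive cells in library 3 to 30 negative cells in library 5.

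At the threshold of the rule, 95 cells had exactly 2 of the 7 genes, with a median of 5327 UMIs, and 46, 33, and 11 cells had 3, 4, and 5 genes. Just outside it, 141 cells met the rest of the rule with 1 listed gene, with a median of 3873 UMIs and 10 H2-Aa UMIs against 35 in the cDCs. Another 6 cells lacked H2-Aa alone, and 198 cells were kept out by a UMI of Siglech, Cd79a, or a Cd3 gene.

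The label was checked against its 5 markers, Flt3, Zbtb46, Xcr1, Clec9a, and Cd209a, of which at least 2 were seen in 58.4% of the cDCs, and also in 47.9% of plasmacytoid dendritic cells (pDCs), which the rule kept out by Siglech. The share was 87.7% on the positive side and 39.3% on the negative side, below that of pDCs. Xcr1 and Clec9a, which define the sides, are 2 of these 5 markers. Flt3, the receptor for the cytokine that drives dendritic cell development, had a UMI in 120 of 185 cDCs (64.9%), and in 0.523% of B cells and 0.246% of T cells. Zbtb46 had a UMI in 68 cDCs (36.8%), in 0 of 276 classical monocytes, which allows up to 1.09%, and in 1.71% of pDCs. The monocytes were chosen outside the cDC rule, which can lower their count for Zbtb46. Flt3 stood at 180 ± 26.3 CPM (UMIs scaled by the total of the summed cells, SD, n = 5 libraries) on the positive side and at 202 ± 21.9 CPM on the negative side. Zbtb46 stood at 56.9 ± 30.2 CPM and 97.5 ± 44.2 CPM. Itgax, the integrin chain CD11c, stood at 143 ± 59.7 CPM and 268 ± 62.3 CPM. These shares in cDCs follow from the rule, which asked for any 2 of the 7 genes, so they show only which of the genes carried the choice. Xcr1, the receptor for Xcl1 at chr9:123852315-123862029 (GRCm38), reached 601 ± 112 CPM on the positive side. Clec9a, at chr6:129408862-129424763, reached 397 ± 87.6 CPM there but was also present at 128 ± 41.4 CPM in pDCs.

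Genes listed for other cell types had UMIs in the cDCs. At least 2 of 7 red pulp macrophage genes had UMIs in 53 cDCs (28.6%), 34.2% of the positive and 25.0% of the negative cells, and the summed level ran from 128 to 1528 CPM and from 505 to 1106 CPM over libraries on the 2 sides. All 7 of these genes were detected, among them C1qa in 44 cDCs (23.8%), against 0.816% of B cells and 1.34% of T cells. At least 2 of 7 classical monocyte genes had UMIs in 37.8% of cDCs, with a summed level of 535 to 1640 CPM. At least 2 of 8 B cell genes had UMIs in 23.2%, with a summed level of 157 to 336 CPM, and 7 of these 8 genes were seen. Of the 8 pDC genes, Siglech and Klk1 were at 0, and at least 2 others had UMIs in 35.1%. Neutrophil genes summed to 6.78 to 3909 CPM, with the highest value in library 3, and 5 negative cells held at least 2 of these genes. At least 2 of 6 nonclassical monocyte genes had UMIs in 24.3% of cDCs, 31.5% of the positive and 19.6% of the negative cells, with a summed level of 204 to 433 CPM. T cell genes summed to 35.2 CPM or less in a library over all cDCs. Their highest sums were 59.98 CPM on the positive and 21.69 CPM on the negative side. Of the 7 T cell genes, Cd3e, Cd3d, and Cd3g were held at 0 by the rule. The low sum is therefore in part set by the choice of cells and is not read as a sign of purity. Basophil or mast cell genes were at 0. All 6 NK cell genes were seen on the negative side, with a summed level of up to 239 CPM in a library. On the positive side 1 of them was seen, at 8.51 CPM or less. Erythroid genes reached up to 344 CPM on the positive and 314 CPM on the negative side. Csf1r and Lyz2 of the classical monocyte list and Cx3cr1 of the nonclassical list are also on the cDC2 list used below. Whether these UMIs were the cells' own or RNA of other cells was not tested. Their part in the differences below was not tested either, but 86 cDCs free of 10 such genes were compared separately.

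The first comparison asked how the Xcr1/Clec9a+ and Xcr1/Clec9a- cells of the same libraries differed in genes that the rule did not use. The positive cells had more Irf8, Naaa, Ppt1, Cadm1, and Cst3, and the negative cells had more S100a4, Sirpa, Relb, Runx3, and Ltb. UMIs were summed per library and side, scaled by library totals, and tested by edgeR's quasi-likelihood test with the library as a block. Of 1696 genes tested, 117 (6.9%) were higher and 207 (12.2%) were lower on the positive side at an adjusted p of 0.05 (Benjamini-Hochberg over all genes tested). TMM factors, another scaling, raised the median log2 difference by 0.13 and gave 155 higher and 150 lower genes. Without cells that held any of 10 genes of other cell types, 37 genes were higher and 48 lower among 719 tested. Of the 54 called genes of the naming rule and lists, 33 were tested among these cells, where 23 passed and 10 did not. Library 3 had 8 positive cells, and leaving out any 1 library gave 240 to 286 calls, which held 220 to 251 of the 324. Positive cells were deeper, with a median of 7286 UMIs against 5624.5.

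**Figure D2:**
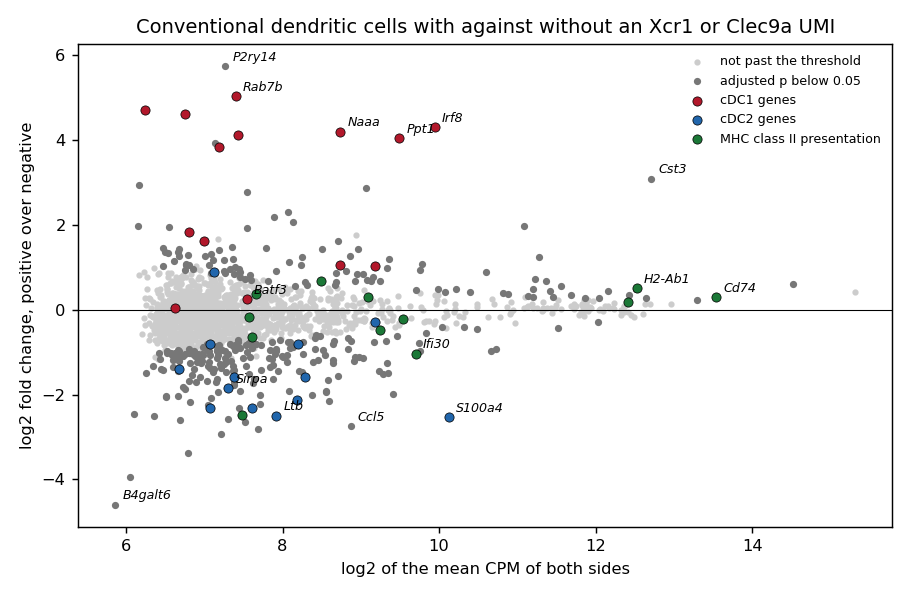
Log2 fold change of Xcr1/Clec9a+ over Xcr1/Clec9a- cells (y axis) against the mean level (x axis, log scale, CPM) for the 1696 genes tested in naive spleen, with genes of the cDC1, cDC2, and MHC class II lists marked. The 117 higher genes lie above 0 and the 207 lower genes below it.

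Irf8, the factor that cDC1 cells need to develop, was high in every library of the positive side. It stood at 2096, 1838, 1697, 1804 and 1964 CPM in libraries 1 to 5, against 21.7, 13.1, 37.9, 203 and 179 CPM on the negative side (log2 fold change 4.30 ± 0.33 SE, edgeR adjusted p = 5.1e-08). The lowest positive value was above the highest negative value in these 5 libraries. By cells, Irf8 had UMIs in 61 of 73 positive and 20 of 112 negative cells, and the negative levels were highest in libraries 4 and 5. Leaving out negative cells with a UMI of Irf8, Naaa, or Cadm1, which was chosen after seeing the data, left 115 higher and 196 lower genes. By this choice these genes are at 0 on the negative side, so the counts are not read as support for the split.

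Naaa, a lysosomal acid amidase, stood at 949, 661, 952, 698 and 795 CPM on the positive side and at 21.7, 65.6, 37.9, 33.8 and 59.8 CPM on the negative side (log2 fold change 4.2 ± 0.26 SE, edgeR adjusted p = 3.7e-09). Ppt1, a lysosomal thioesterase that removes palmitate from proteins, stood at 1406, 1652, 1284, 1217 and 1267 CPM and 32.5, 39.3, 82.1, 95.8 and 126 CPM (log2 fold change 4.05 ± 0.25 SE, edgeR adjusted p = 3.7e-09). The sides did not overlap for either of these lysosomal enzymes. Ppt1 had UMIs in 63 of 73 positive cells and 35 of 112 negative cells, with medians of 7 and 0 UMIs per cell. Cst3, the protease inhibitor cystatin C, was the most abundant of these transcripts at 15379, 12484, 10009.6, 12038 and 10010 CPM against 639.8, 1154, 1288, 2208 and 1813 CPM (log2 fold change 3.09 ± 0.20 SE, edgeR adjusted p = 5.74e-09). Cst3 was seen on both sides, in 72 of 73 and 107 of 112 cells, at medians of 81 and 5 UMIs per cell.

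The largest differences toward the positive side also included surface and sensing genes. P2ry14, a receptor for UDP-sugars, had 173 UMIs on the positive side and 3 on the negative side, a ratio of pooled levels of 69.1 (95% counting interval 23.3 to 338), and was higher in all 5 libraries. Rab7b, a GTPase of endosomal traffic, averaged 330 ± 51.8 CPM against 7.97 ± 17.8 CPM (log2 fold change 5.04 ± 0.51 SE, edgeR adjusted p = 1.38e-06). Ifi205, of the interferon-inducible HIN-200 family and one of the genes with paired GAAA copies before its start, averaged 209 ± 109 CPM against 6.04 ± 8.36 CPM (log2 fold change 4.62 ± 0.48 SE, edgeR adjusted p = 2.28e-06). Cadm1, an adhesion molecule, stood at 546, 506, 183, 136 and 277 CPM against 32.5, 13.1, 6.32, 22.5 and 6.64 CPM (log2 fold change 4.11 ± 0.37 SE, edgeR adjusted p = 3.28e-07). For Cadm1 the positive libraries differed among themselves, and each was still above each negative library. Cd36, a scavenger receptor, had 79 against 3 UMIs, a ratio of 31.6 (95% counting interval 10.4 to 156). Cd8a, the CD8 chain that lymphoid cDC1 cells carry, averaged 277 ± 68.2 CPM against 14.4 ± 16.4 CPM (log2 fold change 3.84 ± 0.43 SE, edgeR adjusted p = 4.49e-06). The predicted gene Gm43914 was also among the 10 largest differences, at 266 CPM against 14.1 CPM.

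Of the cDC1 list of 23 genes outside the rule, 14 passed the filter on low counts. Of these, 12 were higher and none was lower, against 6.9% and 12.2% of all genes tested. The median log2 difference was 3.95 against -0.15 over all genes tested. A gene could pass the filter through 1 side alone, so the count and the median may in part be set by the filter. Besides the genes above, Id2, an inhibitor of E proteins, rose by 1.03 on the log2 scale, and Wdfy4, which cross-presentation requires, by 1.07 (1.07, edgeR adjusted p = 0.000493). Btla, an inhibitory receptor, was higher by 1.62 and Cd24a, a glycosylated surface protein, by 1.83. Btla did not pass without cells holding genes of other cell types (1.27, edgeR adjusted p = 0.139). Batf3, the partner of Irf8 in cDC1 cells, was at 170.2, 134, 161, 272 and 269.9 CPM on the positive side and at 195, 131, 177, 214 and 139 CPM on the negative side. The sides overlapped for Batf3 (log2 fold change 0.25 ± 0.24 SE, edgeR adjusted p = 0.518), with UMIs in 49 of 73 and 68 of 112 cells. The list was chosen with these cells' results known, so its count is not independent evidence of a lineage. Without the filter on low counts, 19 of 23 genes were higher and none lower, against 1.58% and 2.64% of all genes in that fit, with a median of 3.94.

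**Figure D3:**
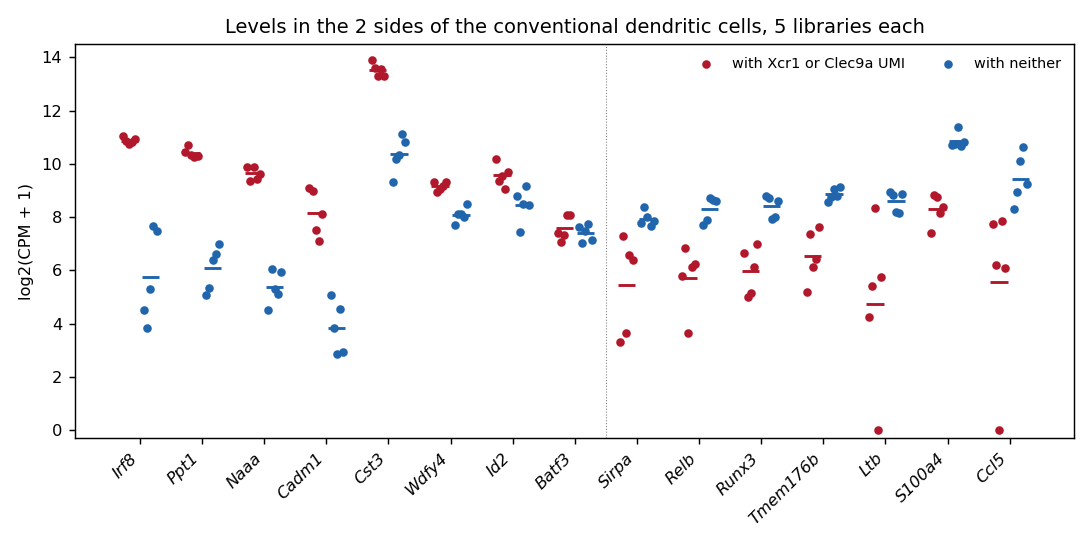
Levels (CPM, log scale after adding 1) of 15 genes in the 5 naive spleen libraries, with 1 point per library and side and a bar at the mean of the log values. Irf8 and Naaa separate the sides without overlap, S100a4 separates them in the other direction, and Batf3 overlaps.

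Genes of the cDC2 list stood higher on the Xcr1/Clec9a- side. Of 25 genes outside the rule, 13 were tested, and 9 were lower on the positive side and 1 higher, against 12.2% and 6.9% of all genes tested. The median was -1.59 against -0.15 over all genes tested. Here too a gene could pass the filter through 1 side alone. Without the filter 12 of 25 were lower and 0 higher, against 2.64% and 1.58%, with a median of -1.86. S100a4, a calcium-binding protein, stood at 1670.1, 1718, 2684, 1617 and 1793 CPM on the negative side and at 170.2, 454, 436, 281 and 329.9 CPM on the positive side (log2 fold change -2.53 ± 0.17 SE, edgeR adjusted p = 5.74e-09). S100a4 had UMIs in 108 of 112 negative and 20 of 73 positive cells, and no library overlapped between the sides. With the positive side limited to cells with both Xcr1 and Clec9a, the log2 fold change was -5.36 for S100a4, -3.69 for Sirpa, and -4.67 for Tmem176b. Sirpa, the receptor for CD47 that marks cDC2 cells, stood at 217, 328, 253, 203 and 232 CPM against 8.96, 155, 11.5, 93.6 and 82.5 CPM (log2 fold change -1.85 ± 0.37 SE, edgeR adjusted p = 0.00144). Its positive levels were near 10 CPM in libraries 1 and 3 and higher in the other three. Tmem176a and Tmem176b, a pair of related membrane channel proteins, differed by -1.58 and -2.14 on the log2 scale, Cd7 by -2.32, and Rogdi by -1.59. Ltb, the membrane part of lymphotoxin, stood at 488, 459, 290.5, 287 and 465 CPM against 17.9, 41.3, 321, 0 and 52.5 CPM (log2 fold change -2.50 ± 0.50 SE, edgeR adjusted p = 0.00152), with the sides overlapping through library 3, where the positive level was the highest of the 5. Rbpj, the DNA-binding partner of Notch, went the other way (log2 fold change 0.88 ± 0.28 SE, edgeR adjusted p = 0.0328) and did not pass without library 1, 2, or 3 (edgeR adjusted p of 0.105, 0.09 and 0.0878).

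Among transcription factors, 14 of 22 on the list were tested, with 3 higher and 5 lower on the positive side, against 6.9% and 12.2% of all genes tested. Relb, a member of the NF-kB family, stood at 206, 236, 417, 394 and 385 CPM on the negative side against 53.7, 114, 11.5, 68.1 and 75 CPM (log2 fold change -2.33 ± 0.33 SE, edgeR adjusted p = 5.34e-05). Runx3, a Runt-domain factor, stood at 445, 419.6, 240, 254 and 385 CPM against 98.5, 31, 34.4, 68.1 and 127 CPM (log2 fold change -2.23 ± 0.28 SE, edgeR adjusted p = 1.45e-05). Neither Relb nor Runx3 overlapped between the sides. Ikzf1, a zinc finger factor of lymphoid and dendritic cells, Klf4, and Bcl11a were lower on the positive side, with log2 fold changes of -1.50, -1.41, and -1.06. Klf4 did not pass with DESeq2 (-1.50, adjusted p = 0.0785). Zeb2 was 215 CPM against 374 CPM and did not pass (-0.81, edgeR adjusted p = 0.0675). It passed without library 3 (-1.08, adjusted p = 0.0228), and with the positive side limited to cells with both Xcr1 and Clec9a (-3.69, adjusted p = 8.15e-06). Spi1, the factor PU.1 of myeloid cells, was 368 ± 24.1 CPM and 415 ± 47.7 CPM (log2 fold change -0.17 ± 0.18 SE, edgeR adjusted p = 0.564). Irf4, a cDC2 factor, was seen in 7 positive and 19 negative cells and Notch2 in 29 and 34 cells, and neither passed the filter on low counts.

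MHC class II genes were among the most abundant on both sides, and the abundant chains differed less than the genes above. Of 12 tested genes of the list, 3 were higher and 3 lower on the positive side (against 6.9% and 12.2% of all genes tested), or 3 and 2 with TMM factors. H2-Ab1, a class II chain, stood at 7004, 7269.5, 6650.2, 6815 and 6846 CPM on the positive side and 4294, 4524, 5292, 5003 and 5300.2 CPM on the negative side (log2 fold change 0.50 ± 0.08 SE, edgeR adjusted p = 0.000192). Each positive library was above each negative library, by a difference that is small beside those of the lineage genes. Cd74, the invariant chain, averaged 13103 ± 1531 CPM and 10699 ± 1368 CPM (log2 fold change 0.29 ± 0.07 SE, edgeR adjusted p = 0.00843), and it missed the threshold without library 1 or 2 (edgeR adjusted p of 0.0504 and 0.0595). H2-Eb1 did not pass (log2 fold change 0.18 ± 0.09 SE, edgeR adjusted p = 0.156), and neither did Ciita, the master regulator of class II genes, at 688 ± 109 CPM and 793 ± 99.2 CPM (log2 fold change -0.21 ± 0.15 SE, edgeR adjusted p = 0.374). The 2 chains of the peptide-loading helper H2-DM beta went in opposite directions. H2-DMb1 was higher on the positive side (log2 fold change 0.69 ± 0.19 SE, edgeR adjusted p = 0.0178), missing the threshold without library 1 or 2 (adjusted p of 0.0631 and 0.0516). H2-DMb2 stood at 358, 367, 272, 282 and 246 CPM on the negative side against 44.8, 41.3, 91.7, 25.5 and 67.5 CPM (log2 fold change -2.47 ± 0.30 SE, edgeR adjusted p = 1.18e-05). These are closely related neighboring genes, so how reads were split between them is uncertain. Ifi30, a lysosomal thiol reductase that prepares antigen, was lower on the positive side (log2 fold change -1.04 ± 0.18 SE, edgeR adjusted p = 0.000338). Ctss, a lysosomal protease that cuts the invariant chain, was at the threshold (-0.48, edgeR adjusted p = 0.0483) and passed in none of the 5 fits without 1 library.

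Of 14 tested genes for MHC class I and cross-presentation, 6 were higher and 2 lower on the positive side (against 6.9% and 12.2% of all genes tested), or 7 and 1 with TMM factors. Psmb8 and Psmb9, subunits of the immunoproteasome, were higher by 0.78 and 1.13 on the log2 scale. Psmb9 stood at 439, 309.8, 344, 425 and 352 CPM against 163, 52.4, 259, 180.3 and 193 CPM, with no overlap between the sides. Neither passed without cells holding genes of other cell types (Psmb8 0.62, edgeR adjusted p = 0.166, and Psmb9 0.60, adjusted p = 0.345), and the same held for Calr, Tapbp, and B2m (adjusted p of 0.151, 0.13 and 0.505). The chaperones of peptide loading Pdia3, Calr, and Tapbp were higher by 1.06, 0.67, and 0.71. Calr did not pass without library 1 (0.62, adjusted p = 0.0588) or library 3 (0.53, adjusted p = 0.111), and Tapbp did not pass without library 1, 2, 4, or 5 (adjusted p of 0.153, 0.086, 0.0843 and 0.0902). The classical class I chains did not pass, with H2-K1 at -0.30, edgeR adjusted p = 0.183, and H2-D1 at 0.21, edgeR adjusted p = 0.503 (0.49, adjusted p = 0.0371 without library 4). B2m, the shared light chain, was lower (log2 fold change -0.46 ± 0.12 SE, edgeR adjusted p = 0.0116) and did not pass with TMM factors (-0.32, adjusted p = 0.0975). Cybb, the catalytic subunit of the NADPH oxidase, was lower (log2 fold change -1.56 ± 0.32 SE, edgeR adjusted p = 0.00193). Without cells holding genes of other cell types it did not pass (-0.71, adjusted p = 0.236), and with the positive side limited to cells with both Xcr1 and Clec9a its log2 fold change was -3.98.

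The negative side also held genes of other functions among its 10 largest differences. B4galt6, a galactosyltransferase of glycolipid synthesis, had 75 UMIs there and 2 on the positive side, a ratio of 31.3 (95% counting interval 8.37 to 263). Tgm2, tissue transglutaminase, stood at 163, 91.8, 126, 113 and 126 CPM against 0, 41.3, 0, 0 and 0 CPM (log2 fold change -3.94 ± 0.65 SE, edgeR adjusted p = 0.000254), with all positive UMIs in library 2. Ffar2, a receptor for short-chain fatty acids, stood at 401, 393, 347, 327 and 345 CPM against 26.9, 51.6, 57.3, 34 and 82.5 CPM (log2 fold change -2.81 ± 0.28 SE, edgeR adjusted p = 1.36e-06), an even level over libraries with no overlap. Cyp4f16, Ifitm6, Fabp5, Ms4a4c, and Chka made up the rest, with log2 fold changes of -3.37, -2.93, -2.64, -2.59, and -2.57. Ccl5, a chemokine for T cells, stood at 314, 485, 1092, 1606 and 598 CPM against 215, 72.3, 0, 229.7 and 67.5 CPM (log2 fold change -2.74 ± 0.42 SE, edgeR adjusted p = 0.000125). Without the 13 cells with Ccr7 and Fscn1 described below, Ccl5 stood at 25.0 ± 25.2 CPM on the positive side and 320 ± 231 CPM on the negative side (SD, n = 5 libraries), the sides overlapped through the negative level of library 3, and the gene did not pass the filter on low counts. Clec4a2, an inhibitory C-type lectin, was lower on the positive side (log2 fold change -2.46 ± 0.45 SE, edgeR adjusted p = 0.000651).

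Several sensing and signaling genes were too sparse for the filter and were read from a fit without it, in which 200 of 12624 genes (1.58%) were higher and 333 (2.64%) lower. Of 133 listed genes tested only there, 9 were higher and 14 lower on the positive side. Their p-values rest on few UMIs and are not read as a measure of the spread between libraries, so counts of cells are given. Fscn1, for instance, was called toward the negative side (edgeR adjusted p = 4.47e-05) although 2 of 5 libraries went the other way. Tlr3, the endosomal sensor of double-stranded RNA, had UMIs in 30 of 73 positive and 2 of 112 negative cells (log2 fold change 3.46, edgeR adjusted p = 3.28e-09). Tlr11 and Tlr12, which sense profilin, were seen in 25 and 21 positive cells and in 3 and 0 negative cells, and Tlr12 was at least 9.19-fold higher against a floor of 3 UMIs over the negative group. Cxcl9, a chemokine for Cxcr3+ T cells, had 218 UMIs in 33 positive cells and 6 UMIs in 3 negative cells (log2 fold change 5.03, edgeR adjusted p = 2.55e-31). Its level was 402 ± 272 CPM against 9.06 ± 11.2 CPM (SD, n = 5 libraries). Gpr141b, an orphan receptor gene, had 73 against 1 UMI, a ratio of 87.5 (95% counting interval 15.2 to 3501). Gcsam and Itgae, the integrin CD103, had 30 and 28 UMIs against 0, at least 12.0-fold and 11.2-fold higher against the same floor. Il12b, a subunit of IL-12, had 29 UMIs, all in 1 positive cell of 1 library, so its call rests on that cell. Tlr7, a sensor of single-stranded RNA, was seen in 3 positive and 14 negative cells, and Tlr9 in 1 cell of each side, and neither was called.

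Toward the negative side, the same fit called Dtx1, a Notch target, with 83 UMIs in 32 of 112 cells against 1 UMI, a ratio of 69.3 (95% counting interval 12.1 to 2769). Cd4, carried by splenic Esam+ cDC2 cells, had UMIs in 17 negative and 5 positive cells (log2 fold change -2.24, edgeR adjusted p = 0.0223). Gpr183, an oxysterol receptor that positions splenic cDC2 cells, had UMIs in 53 negative and 8 positive cells (log2 fold change -2.07, edgeR adjusted p = 3.42e-06). The checkpoint ligand Cd274 and the costimulatory ligand Icosl were lower on the positive side, with log2 fold changes of -1.74 and -1.41. H2-Eb2, a class II paralog, was also lower (log2 fold change -1.52, edgeR adjusted p = 0.00517), with UMIs in 10 positive and 39 negative cells. Of the costimulatory genes that passed the filter, Btla was called and Cd86, a ligand of CD28, was 172 CPM against 96.5 CPM without passing (0.81, edgeR adjusted p = 0.0652). Cd86 passed without library 5 (1.09, adjusted p = 0.0318) and with TMM factors (0.95, adjusted p = 0.032). Cd80 was seen in 7 positive and 19 negative cells.

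Within the Xcr1/Clec9a- side, cells with Clec4a4 and cells with Cd209a were set side by side without a test, since no library held 15 of each. The genes named here were chosen after their values were seen. The 17 cells with Clec4a4 alone came from all 5 libraries, 8 of them from library 5, with a median of 4909 UMIs, and the 36 cells with Cd209a alone had a median of 6339.5 UMIs. Csf1r, the receptor of macrophage growth factor, had a UMI in 1 of 17 Clec4a4 cells (5.88%, exact 95% interval 0.149 to 28.7) and in 19 of 36 Cd209a cells (52.8%, 35.5 to 69.6). Lyz2, lysozyme of myeloid cells, had 2 and 19 cells, and Cx3cr1, the fractalkine receptor, 1 and 12 cells. Lyz2 had 2 UMIs in the Clec4a4 cells and 291 UMIs in the Cd209a cells. Clec12a and Clec10a, C-type lectins, were seen in 0 of 17 and in 11 and 7 of 36 cells, and 0 of 17 allows up to 17.6%. Klf4 was seen in 5 of 17 (29.4%, 10.3 to 56.0) and 18 of 36 cells (50%, 32.9 to 67.1). Cd4 had UMIs in 5 of 17 Clec4a4 cells (29.4%, 10.3 to 56.0) and in 2 of 36 Cd209a cells (5.56%, 0.680 to 18.7). Sirpa was common to both, with 14 of 17 and 24 of 36 cells, as was Relb, with 11 and 21 cells. Esam, the adhesion molecule of Notch2-dependent cDC2 cells, was too rare to compare, with 2 and 3 cells. Irf8 and Naaa were seen in 1 and 0 of the Clec4a4 cells and in 11 and 9 of the Cd209a cells, and the former number is read against 20 Irf8+ cells on the whole negative side. All intervals cover counting error over pooled cells only, not the spread over libraries, so no difference is read from them.

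A few cDCs carried the genes of mature, migrating dendritic cells. UMIs of both Ccr7, the receptor that guides cells to T cell zones, and Fscn1, the actin bundler fascin, were seen in 13 cDCs (7.03%), 3 positive and 10 negative, with 3, 1, 3, 5, and 1 cells in libraries 1 to 5. These cells were picked on these 2 genes after the data were seen, so their other genes are described without a test. They held 70.3% of the Ccl5 UMIs of all cDCs (479 in 12 of 13 cells), although they were 7.03% of the cells. Socs2, a brake on cytokine signaling, had 37 UMIs there and 1 UMI in the other 172 cDCs. Il4i1, an enzyme that degrades amino acids, was seen in 13 of 13 and 32 of 172 cells, and Cacnb3, a calcium channel subunit, in 9 and 3 cells. Relb stood at a pooled 1253 CPM against 152 CPM, and H2-Ab1 at 3173 CPM against 6047 CPM. Cd80 was not seen in any of the 13 cells, which allows up to 23.1% of cells with a UMI, and it was seen in 26 of the other 172 cDCs.

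Leaving out these 13 cells, a choice made after seeing the data, changed how the sides compared for Apol7c, an apolipoprotein L of cross-presenting dendritic cells. Over all cDCs, Apol7c stood at 1289.8, 1384, 218, 459 and 517 CPM on the positive side and 0, 0, 347, 541 and 139 CPM on the negative side, with overlap in libraries 3 and 4 (log2 fold change 1.77 ± 0.66 SE, edgeR adjusted p = 0.0682). Without the 13 cells the log2 fold change was 5.32, adjusted p = 4.7e-10 (edgeR). It also passed without library 3 (2.48, adjusted p = 0.0143) or library 4 (2.50, adjusted p = 0.00995). Without these cells 123 genes were higher and 244 lower in all.

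Shares of cells with mature or cell cycle genes were compared between the sides with a test that could not pass 0.05, so they are given as values. After thinning every cell to 1000 UMIs, 6.61% ± 6.73 of positive and 13.6% ± 8.63 of negative cells (SD, n = 5 libraries) held at least 2 cell cycle genes. The difference of -6.99 percentage points had an exact permutation p of 0.375, where 5 pairs cannot give less than 0.0625, and without thinning the shares were 24.1% and 26.6%. At least 2 genes of the mature list were held by 29.8% ± 9.82 and 39.6% ± 15.5 (difference -9.77 points, exact permutation p = 0.5, n = 5 libraries). That difference turned to 8.25 points at 500 UMIs and to 0.704 points without thinning. Without thinning the shares were 89.0% and 88.3%, so holding 2 genes of this list did not single out a mature minority. At least 4 cell cycle genes were seen in 21 cDCs, 8 positive and 13 negative, from all 5 libraries. By gene, 2 of 7 tested genes of the mature list were lower on the positive side and none higher, against 12.2% and 6.9% of all genes tested. Without the filter on low counts 6 of 18 were lower and 1 higher, against 2.64% and 1.58%. The 13 cells with Ccr7 and Fscn1, 3 positive and 10 negative, held 91.9% of the Fscn1 UMIs, 81.3% of the Anxa3 UMIs, and 53.4% of the Il4i1 UMIs, and Fscn1 was higher on the negative side in 3 of 5 libraries. Without that filter, 3 of 14 cell cycle genes were lower and none higher. Top2a, a topoisomerase of dividing cells, was among them (-1.90, edgeR adjusted p = 0.00043), with UMIs in 6 of 73 positive and 12 of 112 negative cells. Mki67, a proliferation gene, was lower on the positive side (log2 fold change -1.67 ± 0.37 SE, edgeR adjusted p = 0.00319), at 477, 197, 107, 146 and 93 CPM against 107, 10.3, 45.9, 102 and 30 CPM, where the first values are of the negative side, with its highest level in library 1. Mki67 did not pass without cells holding genes of other cell types (-2.02, edgeR adjusted p = 0.0504).

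The cDCs were then compared with the 117 pDCs of the same libraries, cells with Siglech and at least 1 of Ccr9, Klk1, and Cox6a2. Of 2582 genes tested, 482 (18.7%) were higher and 647 (25.1%) lower in cDCs, and with TMM factors, which raised the median by 0.13, 584 were higher and 528 lower. Genes listed for other cell types differed between these groups. All 3 tested red pulp macrophage genes were higher in cDCs, with summed levels of 420 to 1178 CPM against 19.4 to 232 CPM, and at least 2 of 8 B cell genes were seen in 46.2% of pDCs against 23.2% of cDCs, with Ighm, the IgM heavy chain, at -2.64. Neutrophil and erythroid genes summed to up to 12672 and 8813 CPM in a pDC library, with medians over libraries of 0 and 7.62 CPM, and the part of this RNA in the differences was not tested. MHC class II genes stood higher in cDCs, with 11 of 12 tested genes higher and none lower (median 1.33 against -0.12 over all genes tested). The cDC rule asked for an H2-Aa UMI and the choice of pDCs did not, and the part of this in the class II difference was not tested. Ciita averaged 746 ± 97.9 CPM in cDCs and 131 ± 25.3 CPM in pDCs (log2 fold change 2.51 ± 0.17 SE, edgeR adjusted p = 2.66e-11), and H2-Eb1 5477 ± 397 CPM and 1204 ± 267 CPM (log2 fold change 2.20 ± 0.09 SE, edgeR adjusted p = 2.24e-15). The class I chain H2-K1 was lower in cDCs (log2 fold change -0.82 ± 0.11 SE, edgeR adjusted p = 7.41e-07). Zfp366, a zinc finger gene of the dendritic lineage, had 163 UMIs in cDCs and 0 in pDCs, at least 29.6-fold higher against a floor of 3 UMIs over the group, and Gm6377, 9530059O14Rik, and Rasgrp3 were at least 27.0-fold, 23.4-fold, and 18.5-fold higher. Batf3 had 229 UMIs against 1, a ratio of 125 (95% counting interval 22.1 to 4943). Id2 was higher and Tcf4, the E protein that pDCs need, lower in cDCs, with log2 fold changes of 5.90 and -4.37. Irf8 was lower in cDCs as a whole, at 935 ± 206 CPM against 3949 ± 321 CPM (log2 fold change -2.10 ± 0.11 SE, edgeR adjusted p = 3.13e-13), while Spi1 was higher by 2.35. Among genes lower in cDCs, Ly6d averaged 7.36 CPM against 2950.4 CPM, and Gm21762, Paqr5, and Dntt, with 0 UMIs in cDCs, were at least 136-fold, 53.9-fold, and 47.2-fold lower. Atp1b1, a sodium pump subunit, had 3 UMIs against 489, a ratio of 300 (95% counting interval 102 to 1457) toward pDCs. All 3 tested interferon-stimulated genes were lower in cDCs (median -2.52), but without the filter on low counts 4 of 15 were lower and 1 higher, with a median of -0.20. Irf7, a regulator of type I interferon, had a log2 fold change of -2.52. Tlr7 was lower (log2 fold change -2.43 ± 0.41 SE, edgeR adjusted p = 2.71e-05), and Cd86 had 148 UMIs against 3, a ratio of 26.8 (95% counting interval 9.01 to 132).

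The classical monocytes were cells outside the cDC rule with Ly6c2 and at least 2 of Ccr2, Fn1, F13a1, Lyz2, and Csf1r, and without Siglech, Cd79a, and the Cd3 genes. Against the 276 classical monocytes of the same libraries, which ranged from 115 cells in library 1 to 8 in library 5, 572 of 3472 genes (16.5%) were higher and 812 (23.4%) lower in cDCs. TMM factors raised the median by 0.14 and gave 725 and 620. MHC class II genes were higher in 11 of 14 (median 3.47 against -0.11 over all genes tested), with Cd74 at 11913 ± 1311 CPM against 1455 ± 946 CPM (log2 fold change 3.32 ± 0.18 SE, edgeR adjusted p = 5.81e-13). Ctss and Lgmn, lysosomal proteases, were lower. The choice of monocytes did not ask for an H2-Aa UMI either, and the part of this in the class II difference was not tested. Apol7c had 592 UMIs in cDCs and 0 in monocytes, at least 307-fold higher, and 9530059O14Rik was at least 66.9-fold higher. Adam23 had 332 UMIs against 2, a ratio of 258 (95% counting interval 70.9 to 2140), and Gm43914 160 against 1, a ratio of 249 (44.0 to 9888). Ccnd1, cyclin D1, averaged 708 ± 67.1 CPM against 5.49 ± 8.75 CPM (log2 fold change 6.99 ± 0.31 SE, edgeR adjusted p = 2.99e-14). Batf3, Irf8, and Id2 were higher by 2.33, 1.74, and 2.17, and Zeb2 and Klf4 were lower, with log2 fold changes of -2.0 and -1.45. Chil3, a chitinase-like protein, and Hp, haptoglobin, were lower, with log2 fold changes of -7.55 and -6.19. At least 2 of 5 listed neutrophil genes had UMIs in 17.8% of the monocytes against 2.70% of cDCs. Their summed level was 132 to 23746 CPM over libraries in monocytes against 6.78 to 3909 CPM in cDCs. The part of this RNA in these differences was not tested. Arhgef37, Slfn1, and Msr1 had 1, 3, and 1 UMIs in cDCs, ratios of 112 (19.8 to 4445), 89.6 (30.4 to 436), and 99.0 (17.5 to 3937) toward monocytes. All 7 tested interferon-stimulated genes were lower in cDCs, with Isg15 at -1.31, edgeR adjusted p = 0.00372 (-1.08, adjusted p = 0.0501 without library 3). Sirpa and S100a4 had log2 fold changes of -0.93 and -0.96, so both cDC2 genes stood higher in monocytes than in cDCs as a whole.

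**Figure D4:**
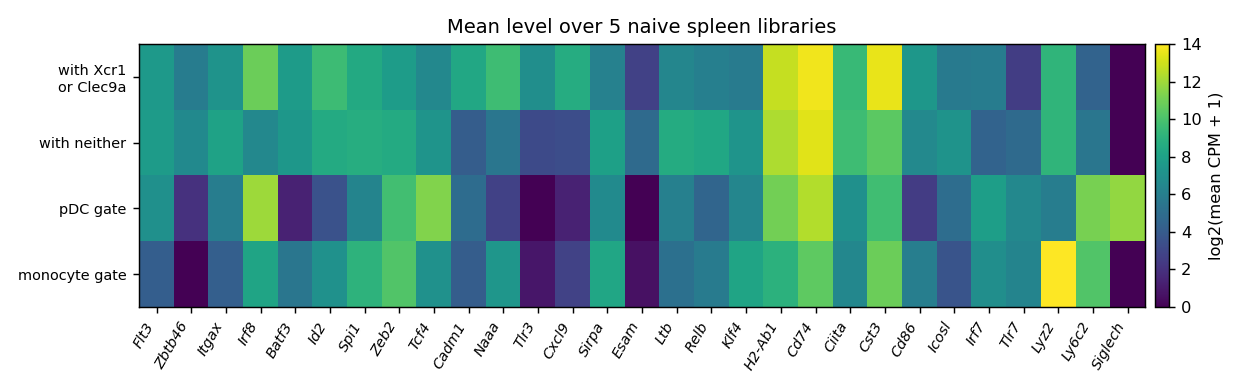
Heat map of gene levels (columns) in Xcr1/Clec9a+ cDCs, Xcr1/Clec9a- cDCs, pDCs, and classical monocytes (lines from top to bottom), where color gives the log2 of the mean CPM over 5 naive spleen libraries after adding 1, with no error drawn. Flt3, Zbtb46, Itgax, Siglech, and Lyz2 are among the genes that chose these cells or mark them. Irf8 is highest in pDCs at 3949 CPM and lowest in Xcr1/Clec9a- cDCs at 91.0 CPM.

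Irf8 stood in the same order over these 4 groups in each of the 5 libraries. It averaged 3949 ± 321 CPM in pDCs, 1880 ± 154 CPM in Xcr1/Clec9a+ cDCs, 286 ± 63.6 CPM in monocytes, and 91.0 ± 92.2 CPM in Xcr1/Clec9a- cDCs (SD, n = 5 libraries).

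The same rule was applied to CD45+ cells of rejecting kidney, where it took 266 of 11948 cells, 94 and 172 in the 2 libraries, 200 of them Xcr1/Clec9a+. The share was 2.18% against 0.396% in naive spleen, a difference of 1.79 percentage points with an exact permutation p of 0.0952 (two-sided, n = 5 and 2 libraries), which is the smallest these numbers allow. The size of this difference depended on the rule and the depth. In spleen, 198 cells met the rest of the rule but were kept out, with Siglech, Cd79a, or a Cd3 gene in 91, 84, and 65 of them. In kidney 69 cells were kept out in this way, with these genes in 11, 1, and 62 of them. The part of this exclusion in the difference was not tested. Of the 266 kidney cells, 208 had exactly 2 of the 7 genes, and with at least 3 genes the shares were 0.458% and 0.194% (difference 0.264 points, exact permutation p = 0.381, n = 5 and 2 libraries), with 1 kidney library at 0.186%. Thinning all cells to 2000, 1000, and 500 UMIs lowered both shares. They were 1.54%, 0.571%, and 0.123% in kidney and 0.239%, 0.121%, and 0.0398% in spleen. The difference was then 1.30, 0.45, and 0.083 points, with the kidney mean higher at each depth. After thinning to 1000 UMIs, Xcr1 or Clec9a was seen in 33.5% of the kidney cells and 20.6% of the spleen cDCs (means of 2 and 5 libraries), which is a description, since both genes belong to the rule. This difference of 12.9 points was 3.03 points at 500 UMIs, 18.6 points at 2000 UMIs, and 35.5 points without thinning, and 24.9 points with at least 3 of 7 genes. The kidney cells go against the label in part: Flt3 was seen in 26.7%, against 64.9% in spleen. Cd209a was also rarer, in 4 of 266 kidney cells against 48 of 185 spleen cDCs. Zbtb46 was similar, in 36.5% of kidney cells and 36.8% of spleen cDCs, and Xcr1 was seen in 25.9% and 28.6%. Clec9a went the other way, with 63.5% in kidney and 35.1% in spleen, and 131 of the 200 positive kidney cells had Clec9a without Xcr1. C1qa, a complement gene of macrophages, was seen in 40.6% of the kidney cells, in 47.5% of the positive cells, and in 12.4% of kidney T cells. Csf1r was seen in 54.5% of the kidney cells. They are therefore called cells of the same rule. Their median depth was 3609.5 UMIs, against 6164 in the spleen cDCs, and the shares of single genes were taken without thinning. Tissue, recipient strain, transplantation, digestion, and library differ together between the groups and cannot be told apart.

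Against these kidney cells, 620 of 5498 genes (11.3%) were higher and 1806 (32.8%) lower in the spleen cDCs. TMM factors moved the median from -0.35 by 0.34 and gave 1033 higher and 1256 lower genes, so directions of small differences depend on the scaling. Genes of the mature list stood higher in spleen in 9 of 14 tested and lower in none. The 13 spleen cells with Ccr7 and Fscn1 held 74.4% of the Ccr7 UMIs, 91.9% of the Fscn1 UMIs, and 97.4% of the Socs2 UMIs of the spleen cDCs. Apol7c averaged 521 ± 217 CPM against 8.8 ± 12.4 CPM (SD, n = 5 and 2 libraries; log2 fold change 6.34 ± 0.64 SE, edgeR adjusted p = 1.52e-07). H2-Eb2, Dtx1, Bex6, Skint3, and Sox4, with 0 UMIs in the kidney cells, were at least 29.0-fold, 24.6-fold, 21.1-fold, 20.2-fold, and 18.7-fold higher. Interferon-stimulated genes were lower in spleen in 8 of 11 and higher in none under both scalings. Genes listed for other cell types moved with the groups too. Lower in spleen were 5 of 7 classical monocyte genes (against 32.8% of all genes tested), among them Csf1r and Lyz2 of the cDC2 list. Of 7 tested red pulp macrophage genes, C1qa, C1qb, and C1qc were lower in spleen and Slc40a1 and Vcam1 higher. Of 4 tested nonclassical monocyte genes, 3 were higher in spleen and 1 lower. Ighm, Cd79b, and the globin gene Hbb-bs were higher (log2 fold changes of 1.18, 3.21, and 5.06). The part of RNA from other cells in these differences was not tested. Iigp1 and Gbp2b, interferon-induced GTPases, had 2 and 1 UMIs in spleen, ratios of 661 (95% counting interval 183 to 5465) and 626 (112 to 24785) toward kidney. Lrmda and Creb5, with 0 UMIs in spleen, were at least 364-fold and 123-fold lower, and Cmss1 had a log2 fold change of -9.02. The 10% of genes with the longest gene spans had a median of -1.57, and 407 of these 548 were lower, while the 10% with the shortest had a median of 0.33. The part of gene length in these differences was not tested. H2-Ab1 (0.19, edgeR adjusted p = 0.146) and Irf8 (0.18, edgeR adjusted p = 0.506) did not pass, and H2-Ab1 passed with TMM factors (0.52, adjusted p = 0.00197).

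The split into Xcr1/Clec9a+ and Xcr1/Clec9a- cells gave fewer calls in the kidney, with 37 of 4314 genes (0.858%) higher and 44 (1.02%) lower on the positive side, from 2 libraries. Without the library block 1 gene was called, and DESeq2 called 7. With 2 libraries and a block, almost no spread between libraries is left to measure. The p-values of this split in kidney rest mainly on variation pooled over genes and are not read as a measure of that spread. Of the cDC1 list, 7 of 16 tested genes were higher there, among them Cadm1 (1.91, edgeR adjusted p = 1.73e-05), Ppt1 (1.48, edgeR adjusted p = 9.39e-08), and Irf8 (0.87, edgeR adjusted p = 0.0072). S100a4 and Ffar2 were lower on the positive side there too, with log2 fold changes of -1.73 and -2.49. Of the cDC2 list, however, 3 of 16 tested genes were lower on the positive side and 2 higher. The median of that list was 0.05, against -0.02 over all genes tested. Sirpa (0.08, edgeR adjusted p = 0.975), Relb (-0.46, adjusted p = 0.77), and Runx3 (-0.50, adjusted p = 0.614) did not pass in kidney. C1qa, C1qb, and C1qc were higher on the positive side by 2.17, 2.24, and 2.31, and the part of RNA from other kidney cells, given above for C1qa, was not tested. Of the 117 genes higher in spleen, 110 were tested in kidney, 74 had the same sign, and 12 were called in the same direction and 1 in the other. Of the 207 lower genes, 191 were tested, 135 had the same sign, and 14 were called in the same direction and 1 in the other, against a background where 2100 of all 4314 kidney genes had a positive and 2214 a negative sign. The exceptions, named after their values were seen, were Rnase6, a secreted ribonuclease, at 0.67 in spleen and -1.06 in kidney (edgeR adjusted p = 0.0477), and Fyb, an adaptor protein, at -1.20 and 0.90 (edgeR adjusted p = 0.00484). Cst3, 3.09 in spleen, was -0.23 in kidney (edgeR adjusted p = 0.579), and the difference between the tissues was not tested.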

How the data were processed

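Reads were mapped and counted by the authors with Cell Ranger against mm10, as named in the submitters' processing notes (versions not given in the sources used here). The deposited matrices hold raw UMI counts per gene and cell, after a cell filter by the authors whose limits are not given for these samples. The naive spleen matrix (47060 cells, 5 libraries by barcode tag) and the rejecting kidney matrix (11948 cells, 2 libraries) were used, and the CD8+ T cell matrices were not analysed here beyond a count of shared barcodes. The members, gene lists, and tests were chosen with earlier results of these data known, and 3 alternatives on Irf8+, mature, and dividing cells were added after seeing the values.

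UMIs of the 185 cDCs (1201521 in all) were summed per library and side or cell type. Sums were tested by edgeR 4.0.16 (R 4.3.3) with quasi-likelihood fits, plain library totals, filterByExpr, and, within a tissue, the library as a block, since both groups came from the same libraries. P-values were adjusted by Benjamini-Hochberg over all genes tested. Levels are CPM. The script was tested on simulated data. Alternatives were TMM factors, DESeq2 1.42.0, no filter, no block, leaving out each library, at least 3 of 7 genes, cells without 10 genes of other cell types, no doublets (Scrublet, scanpy 1.11.5), a filter on cells (genes from 200 up to 7000, UMIs from 1000 up to 40000, mitochondrial share not above 10%), a negative side with Sirpa, and a positive side with both markers. Shares were compared after thinning cells to 1000 UMIs, by exact two-sided permutation tests (scipy 1.17.1).

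By rule, the text names up to 6 members of each list by mean level, 20 genes fixed by name, the rule genes, and the 10 called genes with the largest fold change at each end of the comparison of the sides and the 5 at each end of the other comparisons, with a mean of at least 50 CPM in the higher group and the same direction in every library (immunoglobulin, T cell receptor, ribosomal protein, and mitochondrial genes left out). Other list members are named after their values were seen. Where a group had 0 UMIs, the fold is a bound against 3 UMIs over the group. Intervals and floors cover counting error only. Promoters and gene names came from RefSeq tables of GRCm38.p6, and gene spans from GENCODE release M21.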

Additional observations from a re-analysis of the deposited data

Results flagged for a closer look

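In 29 of 238 groups of 5 library values (12.2%), 1 library stood apart from the other four by Dixon's test. Chance gives about 1 in 20 for normal values, but in 10 of the 29 groups the other four libraries were at 0, where any value stands apart, so the share is not read against chance. On the Xcr1/Clec9a- side, library 5 was highest for 3 genes of the positive side, with P2ry14 at 19.9 CPM and Rab7b at 39.9 CPM where the other libraries had 0, and Gm43914 at 46.5 CPM. Also on that side, S100a4 was highest in library 3 at 2684 CPM, Mki67 highest in library 1 at 477 CPM, and Bcl11a lowest in library 4 at 355 CPM. On the Xcr1/Clec9a+ side, Tgm2 was seen in library 2 alone at 41.3 CPM, and Cd7 was highest there at 72.3 CPM. Library 3, with 8 positive cells, was highest for Ltb at 321 CPM and Ms4a4c at 91.7 CPM. Library 1 was highest for Btla at 259.8 CPM and Marcksl1 at 188 CPM and lowest for Zeb2 at 44.8 CPM.

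Over all cDCs, library 1 stood apart for Zfp366 at 177 CPM and Irf7 at 68.7 CPM, library 5 for Ciita at 912 CPM, and library 3 for S100a4 at 1885 CPM. Chil3 reached 28.5 CPM in library 3, against 4.91 CPM or less in the others. Traces of other monocyte or interferon-induced genes came from 1 library each, with Slfn1 at 12.2 CPM in library 3, Arhgef37 at 5.78 CPM in library 2, and Msr1 and Gbp2b at 3.52 CPM each in library 5. Among pDCs, Batf3 was seen in library 4 alone at 7.62 CPM. Among monocytes, Adam23 reached 2.72 CPM in library 1, Gm43914 1.39 CPM in library 3, and Ccnd1 20.6 CPM in library 4. In library 5, which held 8 monocytes, Slfn1 was lowest at 103 CPM, Cd86 lowest at 51.6 CPM, and Ciita highest at 232 CPM.

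For 6 of the genes chosen by the naming rule, all 5 spleen libraries went one way between the sides and both kidney libraries the other. The log2 fold change of positive over negative cells was -3.94 in spleen and 0.65 in kidney for Tgm2, -2.74 and 1.12 for Ccl5, and -2.57 and 0.61 for Chka. It was -0.48 and 0.43 for Ctss, -2.46 and 1.05 for Clec4a2, and -1.67 and 0.27 for Mki67. None of the 6 passed in kidney (edgeR adjusted p from 0.0511 for Ctss to 0.85 for Mki67), and the difference between the tissues was not tested.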

How the results depend on the processing

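Between the sides of the split, 324 genes were called, against 173 with DESeq2, 155 with at least 3 of 7 rule genes, 533 without a filter on low counts, and 85 without cells holding genes of other cell types. Against pDCs the count was 1129 and 2080 without a filter. Against monocytes it was 1384, 2192 without a filter, and 892 without genes of other cell types. Against kidney it was 2426, 1072 with at least 3 of 7 rule genes, and 1012 without genes of other cell types. In kidney it was 81 and 7 with DESeq2. Fewer cells and genes entered the fits on fewer cells. DESeq2 tested the same cells and genes, and the cause of its lower counts was not tested. Leaving out 1 library gave 240 to 286, 979 to 1147, 1083 to 1377, and 1904 to 2364 calls in the first 4 comparisons, and could not be fitted in kidney, where 1 library a side leaves no error. The library tag pairs the groups of one tissue, and without this replicate block the counts were 341, 1111, 1473, and, in kidney, 1. No block was possible between tissues.

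Of 63 genes named between the sides, 1052 values under alternatives kept their direction, with 61 no longer past the threshold and 18 newly past it. Part of this was set in advance, since the genes with the largest differences were chosen to go the same way in every library. No cDC was called a doublet, so the fit without doublets repeated the main fit. Leaving out negative cells with Irf8, Naaa, or Cadm1 favored these genes by choice. Between tissues, Irf8 turned to -0.011 without rejecting kidney replicate 2 (up to 0.41 without 1 library), to -0.21 with at least 3 of 7 rule genes, and to -0.39 without genes of other cell types, and never passed the threshold there. The mature-list difference between the sides turned to 8.25 points at 500 UMIs and 0.704 points without thinning. Without 1 library, the kidney share exceeded the spleen share by 1.35 to 2.22 points, the Xcr1 or Clec9a share differed by 10.2 to 16.1 points, and the cell cycle and mature differences ran from -11.4 to -2.96 and from -16.7 to -3.89 points. The kidney share exceeded the spleen share by 0.264 points with at least 3 of 7 genes and by 1.30, 0.45, and 0.083 points after thinning to 2000, 1000, and 500 UMIs, against 1.79 points. Thinning lowered the shares of both tissues.

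Depth limits the split, and a cell whose Xcr1 and Clec9a RNA was not captured counts as negative. The planned test of Clec4a4 against Cd209a cells was not run, with fewer than 15 cells a library.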
